A study of Rattus norvegicus with 6 samples.

Results

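The Sox and forkhead genes are families of transcription factor genes, and their transcripts were counted in rat lateral ventricular choroid plexus at embryonic day 15 (E15) and in the adult. Members were chosen by symbol, as every gene of the authors' table of age-related genes named Sox with a number, or Fox with a letter from a to s and a number. This gave 30 genes, 11 Sox and 19 forkhead, among 10093 genes with a symbol in a table of 10653, out of 29479 gene identifiers counted. The table lists only genes that the authors called different between the ages, so the members were selected on the contrast described here. Their age differences are therefore a description. Whether a member passed the fit across all genes is stated, but it is not independent evidence of a difference, and no p-value is given for a member. Other Sox and forkhead genes, among them *Sox9* and *Foxj1*, were not analysed here.

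The choroid plexus is a vascular fold of the ventricle wall whose epithelium secretes cerebrospinal fluid. Sox proteins bind the minor groove of DNA through an HMG box related to that of Sry and bend it, and they are known for holding cells in progenitor states and for setting lineage in neural crest, glia, cartilage and endothelium. Forkhead proteins bind DNA through a winged helix domain. Some of them open chromatin for other factors, the FoxO subgroup answers to insulin signalling, and *Foxm1* drives the genes of mitosis.

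RNA came from untreated Sprague-Dawley rats, and the labels name no transgene or other allele at either age. For each sample the lateral ventricular plexuses of 10 animals were pooled, and 3 such pools were sequenced at E15 and 3 in the adult. The plexus was taken whole, so stroma, vessels and blood came with the epithelium, and a change in a bulk count cannot be told apart between fewer cells of a type and less RNA per cell. Replicates are pools of separate animals of an age and are named by their number in the labels.

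The 6 libraries held between 17875089 and 19204440 counts. To normalize them, raw counts were divided by library size times a TMM factor. The factors ranged from 1.32 to 1.33 at E15 and from 0.735 to 0.773 in the adult, and the result was brought to a common library size. Fold changes come from edgeR's quasi-likelihood fit over 16643 genes with more than 10 counts in all, and a gene was called where its Benjamini-Hochberg adjusted p was under 0.05. The median log2 difference over all genes tested, E15 minus adult, was 0.14, and it was 0.94 when libraries were scaled by total counts only. Spearman's rho between libraries, over genes, was 0.979 and 0.982 for E15 replicate 1 with the others of its age, 0.996 between E15 replicates 2 and 3, and 0.986 to 0.988 in the adult. The tissue markers were present at both ages, with *Ttr*, which encodes the transthyretin the plexus secretes, at a mean normalized count of 445719 at E15 against 3995410 in adult pools.

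Of the 30 members, 29 could be tested and 24 were called higher at E15, 9 Sox and 15 forkhead genes, where 34.7% of all genes tested were called in that direction. In the adult 4 members were called higher, *Sox5*, *Foxo4*, *Foxj3* and *Foxa3*, against 29.3% of all genes tested. *Sox10* was tested and not called, and *Foxr1* had too few counts, 8 in all, to be tested. The pools of the ages did not overlap for 28 members. Of these, 24 were higher at E15, against 38.0% of all genes tested, and 4 were higher in the adult, against 32.1%. Since the rule used this contrast, nothing is read from these shares. The median log2 difference was 2.65 for the Sox genes and 3.94 for the 18 forkhead genes tested. With the genes at 0 adult counts set to their ratio against a floor of 3 adult counts, the forkhead median was 3.47. Among the members called at E15, 19 differed by more than 4-fold in the fit. The share of all genes at that fold was not counted, so nothing is read from this number either.

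**Figure D1:**
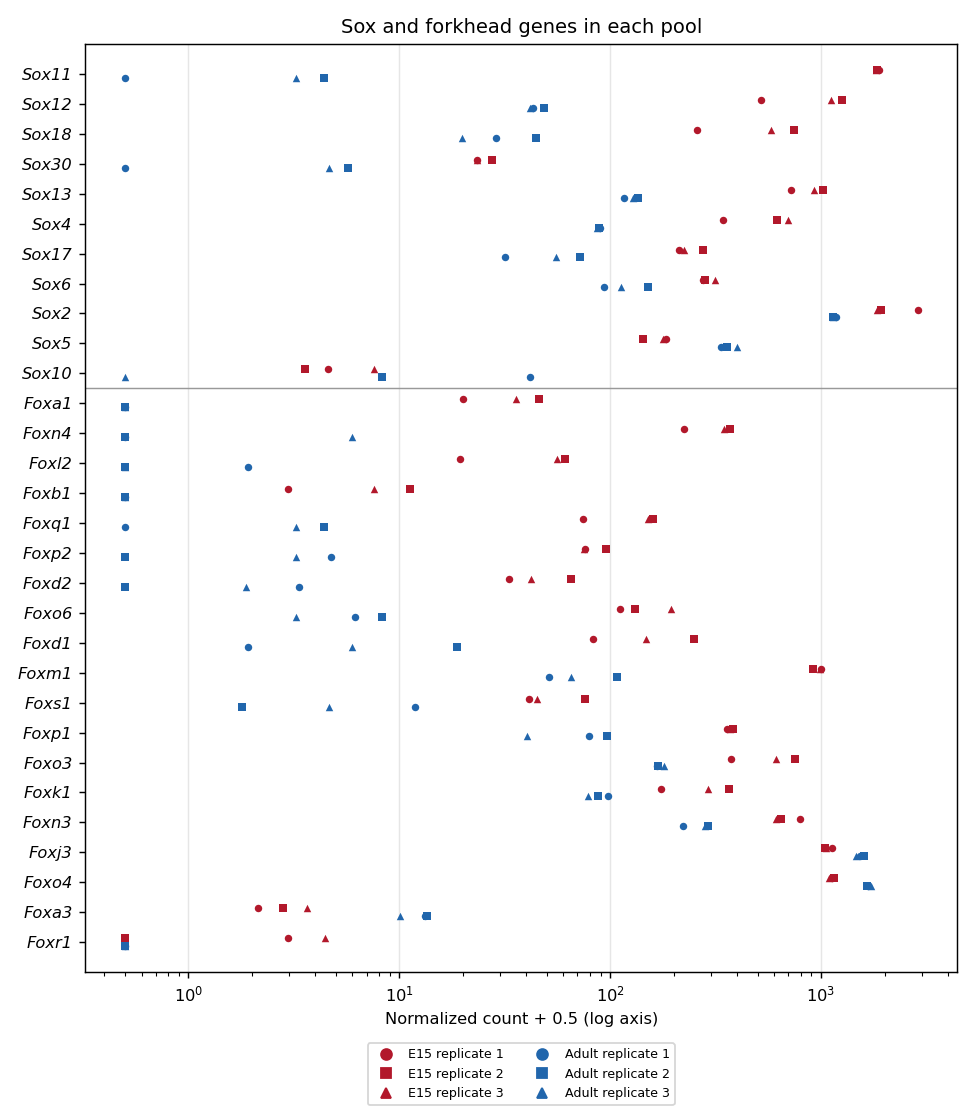
Normalized count plus 0.5 (log axis) of each Sox and forkhead gene in each of the 6 pools, with E15 in red and the adult in blue and a different symbol for each replicate. The red and blue symbols stand apart for 28 genes, with red to the right for 24 of them, and they overlap for *Sox10* and *Foxr1*.

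Promoters of the members were read to show what the genes share that their choice did not use. The 250 bases before the start were found for 17 members in RefSeq (rat build GRCr8), and 5 short motifs were searched on both strands. The CCAAT box, written CCAAT, was present before 8 of the 17 genes and in 34.0% of the 33469 promoters of the same length in the table. The Sox core AACAAT was found before 0 of the 17, against 10.3% of all promoters. The forkhead core GTAAACA was found before *Foxp1* alone (3.21% of all promoters), and the E2F letters TTCCCGC before *Foxd2* and *Foxn3* (3.36%). The TATA box, written TATAAA, was found before *Foxa3* and *Foxp1* (12.9%). No searched motif contains another. The median GC content of the 19 member promoters was 64.0%, with a median of 17 CpG pairs, against 51.2% and 5 over all promoters. A match is a run of letters and not a shown binding site.

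The promoters printed here belong to *Sox11* (chr6:49738795-49739044, minus strand), *Sox2* (chr2:119464881-119465130, plus strand), *Foxd1* (chr2:31436552-31436801, plus strand) and *Foxo4* (chrX:70425313-70425562, plus strand). They were chosen as the member with the largest fitted difference, the progenitor gene of the ventricle wall, a stromal progenitor gene with a pair of CCAAT boxes, and an adult-called member that held none of the motifs. Each runs 5′ to 3′ towards the start, and capitals mark the CCAAT box, which reads ATTGG where it lies on the opposite strand. The first base of the box was 69 bases before the start in *Sox11*, 106 in *Sox2*, and 192 and 157 in *Foxd1*.
Sox11: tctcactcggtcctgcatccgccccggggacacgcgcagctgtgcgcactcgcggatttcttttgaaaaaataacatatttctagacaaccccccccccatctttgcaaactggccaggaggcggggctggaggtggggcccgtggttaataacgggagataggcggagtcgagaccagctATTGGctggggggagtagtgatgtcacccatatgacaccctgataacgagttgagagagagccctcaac
Sox2: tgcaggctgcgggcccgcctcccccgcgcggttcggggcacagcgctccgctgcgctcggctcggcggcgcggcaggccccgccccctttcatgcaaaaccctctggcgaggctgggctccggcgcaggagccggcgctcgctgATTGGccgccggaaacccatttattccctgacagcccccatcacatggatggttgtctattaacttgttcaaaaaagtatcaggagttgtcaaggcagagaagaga
Foxd1: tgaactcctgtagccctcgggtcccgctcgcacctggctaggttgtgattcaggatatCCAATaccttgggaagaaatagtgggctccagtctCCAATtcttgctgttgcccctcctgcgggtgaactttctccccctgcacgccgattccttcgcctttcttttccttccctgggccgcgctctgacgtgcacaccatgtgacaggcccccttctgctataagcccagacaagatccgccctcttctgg
Foxo4: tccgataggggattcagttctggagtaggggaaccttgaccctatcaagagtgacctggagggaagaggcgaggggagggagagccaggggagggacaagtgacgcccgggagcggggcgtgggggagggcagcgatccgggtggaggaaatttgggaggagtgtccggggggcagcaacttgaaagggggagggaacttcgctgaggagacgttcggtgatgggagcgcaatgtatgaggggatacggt

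*Sox2*, the SoxB1 member, maintains neural progenitors and is expressed by ventricular epithelia. It had 3514, 2499 and 2361 raw counts in E15 replicates 1, 2 and 3 and 830, 879 and 826 in the adult replicates. All E15 pools lay above all adult pools, with replicate 1 the highest. The mean normalized count was 2217 ± 572 (SD, n = 3) at E15 and 1150 ± 21.8 (n = 3) in the adult, a 1.93-fold difference (log2 0.95, SE 0.17). This was the smallest fitted difference among the members called at E15. Without E15 replicate 1 the difference was 1.64-fold.

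The SoxC genes *Sox4*, *Sox11* and *Sox12* encode activators of neuronal and mesenchymal progenitor genes, and all were higher at E15. *Sox11* had 2305, 2383 and 2314 counts in E15 pools against 0, 3 and 2 in adult ones. The E15 pools were close together, and the adult pools were at or near 0. The fitted difference was 772-fold (log2 9.59, SE 0.29), and it rests on 5 adult counts. With the adult replicate 2 left out the ratio was 1323, with a 95% exact interval of 366 to 10926 that covers counting error only. With the adult replicate 1 left out the fitted difference was 524-fold.

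*Sox12* had 636, 1629 and 1422 counts at E15 and 30, 37 and 30 in adult pools. E15 replicate 1 was the lowest of its age and still far above the adult pools. The difference was 21.9-fold (log2 4.45, SE 0.35). *Sox4* had 420, 802 and 884 counts at E15 against 63, 68 and 63 in the adult pools, so it was also lowest in E15 replicate 1 while its adult counts were nearly equal. It was 6.26-fold higher at E15 (log2 2.65, SE 0.27). The SoxC genes therefore differed in how far E15 stood above the adult. The raw count ratio of *Sox12* to *Sox4* within a pool was 1.72 ± 0.275 (SD, n = 3) at E15 and 0.499 ± 0.0392 (n = 3) in the adult, without overlap.

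The SoxD genes *Sox5*, *Sox6* and *Sox13* encode proteins that pair through a coiled coil and have no activation domain of their own. *Sox5* and *Sox6* act together with *Sox9* in cartilage and time the maturation of glia. In the plexus the SoxD genes went opposite ways. *Sox5* had 223, 186 and 226 counts in E15 pools against 236, 276 and 289 in adult ones. The normalized counts did not overlap, at 168 ± 21.3 (SD, n = 3) at E15 and 363 ± 31.7 (n = 3) in the adult. *Sox5* was 2.17-fold higher in the adult (log2 -1.11, SE 0.17), and under scaling by total counts only its log2 difference was -0.31 and it was not called.

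*Sox6* had 335, 364 and 400 counts at E15 and 66, 116 and 82 in adult pools. Its E15 pools were all higher, by 2.43-fold (log2 1.28, SE 0.21). *Sox13* had 875, 1330 and 1183 counts at E15 against 82, 104 and 93 in the adult pools. Its difference was larger, 7.03-fold (log2 2.81, SE 0.17), again with every E15 pool above every adult pool. Ratios within a pool do not depend on the scaling. The ratio of *Sox5* to *Sox6* counts was 0.666, 0.511 and 0.565 in the E15 replicates and 3.58, 2.38 and 3.52 in the adult replicates. On average it was 5.44 times higher in the adult. The ratio of *Sox5* to *Sox13* was 0.195 ± 0.0576 (SD, n = 3) at E15 against 2.88 ± 0.227 (n = 3) in the adult, 14.7 times higher. Because all members were selected on the age contrast, these ratios are a description without a test.

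**Figure D2:**
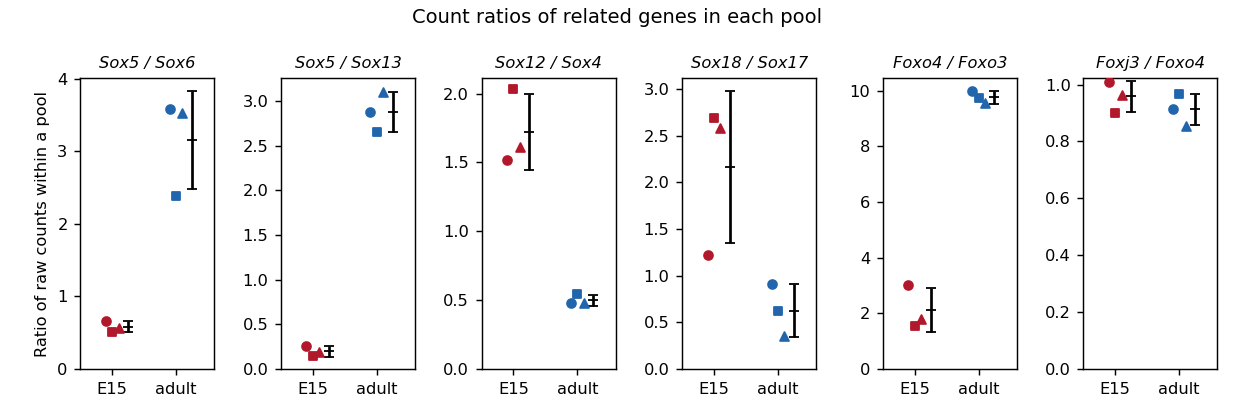
Ratio of raw counts of related genes within each pool, with E15 in red, the adult in blue, a symbol for each replicate and a black bar for the mean and SD (n = 3), each panel with its own linear axis from 0. The ratios of *Sox5* to *Sox6*, *Sox5* to *Sox13* and *Foxo4* to *Foxo3* are higher in every adult pool, those of *Sox12* to *Sox4* and *Sox18* to *Sox17* are higher in every E15 pool, and that of *Foxj3* to *Foxo4* overlaps between the ages.

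*Sox17* and *Sox18*, of the SoxF subgroup, specify arterial and lymphatic endothelium. *Sox17* had 258, 358 and 286 counts in E15 pools against 22, 55 and 40 in adult ones. It was 4.49-fold higher at E15 (log2 2.17, SE 0.30). *Sox18* had 316, 964 and 737 counts at E15 and 20, 34 and 14 in adult pools, a 17.1-fold difference (log2 4.09, SE 0.44). The pools of the ages did not overlap for either gene, and the lowest E15 pool was replicate 1 for both. The ratio of *Sox18* to *Sox17* was 2.16 ± 0.816 (SD, n = 3) at E15 against 0.626 ± 0.280 (n = 3) in the adult. Of 14 endothelial markers 11 were matched, and all 11 were called higher at E15, with a median log2 of 3.11. The summed normalized count of the list was 10291 to 15364 at E15 and 1228 to 1941 in the adult, and none of its markers was at 0 in all adult pools. The genes of the list with the most counts were *Plvap*, *Cdh5*, *Tie1* and *Tek*. The list was thus higher at E15 together with the SoxF genes, and its part in their difference was not tested.

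*Sox10*, of the SoxE subgroup, is the factor of neural crest and oligodendrocytes, and *Sox30*, of subgroup H, serves the formation of sperm. *Sox10* had 5, 4 and 9 counts at E15 against 29, 6 and 0 in the adult pools. The ages overlapped, and the adult mean rested on replicate 1. The fitted difference was 3.35-fold higher in the adult (log2 -1.74, SE 1.10) and was not called. Without the adult replicate 1 it was 1.17-fold higher at E15 (log2 0.23) and not called, and without the adult replicate 3 it was 5.11-fold higher in the adult and called. Oligodendrocyte markers were also highest in the adult replicate 1, where the summed normalized count of the 10 matched genes of 12 was 9219, against 4770 and 3501 in the other adult pools and 2194 to 2584 at E15. Of these markers 4 were called at E15 and 6 in the adult (median log2 -1.53), and none was at 0 in all adult pools. *Sox30* had 28, 35 and 29 counts in E15 pools against 0, 4 and 3 in adult ones, 7.42-fold higher at E15 (log2 2.89, SE 0.71).

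**Figure D3:**
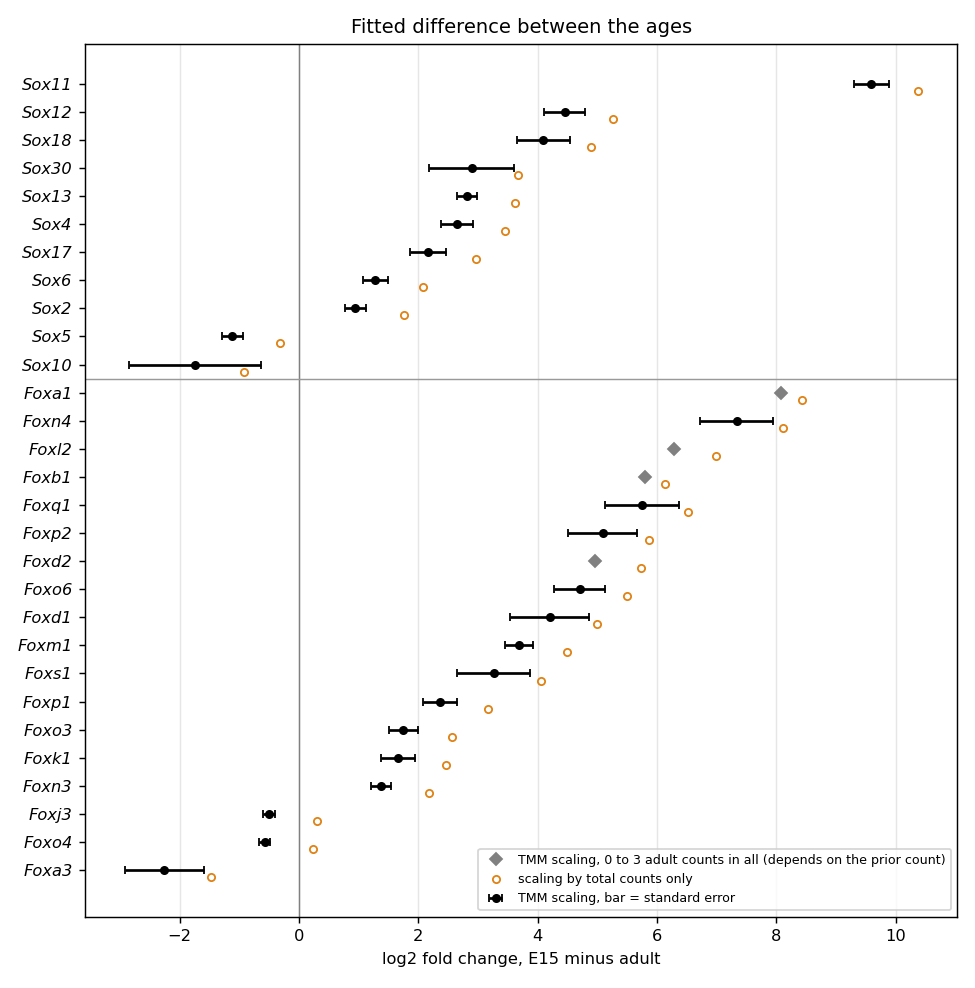
Fitted log2 fold change, E15 minus adult, of the 29 members tested, with TMM scaling (black, bar for the standard error, or grey where the adult pools held 0 to 3 counts in all) and with scaling by total counts only (orange circles). *Sox11* stands farthest to the right at 9.59, and the orange circles of *Foxj3* and *Foxo4* lie on the other side of 0 from their black points.

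Among the forkhead genes, the FoxO subgroup split by age. FoxO proteins enter the nucleus when insulin signalling is low and switch on genes of stress resistance and metabolism. *Foxo3* had 457, 978 and 777 counts at E15 and 118, 130 and 131 in adult pools. It was 3.37-fold higher at E15 (log2 1.75, SE 0.24), with no overlap and with E15 replicate 1 the lowest of its age. *Foxo6*, the member best known from neurons, had 135, 170 and 247 counts at E15 against 4, 6 and 2 in the adult pools. Its difference was 26.1-fold (log2 4.71, SE 0.43).

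*Foxo4* went the other way under TMM scaling. It had 1370, 1499 and 1397 counts in E15 pools against 1180, 1266 and 1250 in adult ones, so raw counts were higher at E15 and normalized counts, 1124 ± 29.4 (SD, n = 3) and 1677 ± 36.9 (n = 3), higher in the adult. The difference was 1.49-fold (log2 -0.58, SE 0.10) with TMM scaling and reversed to a log2 of 0.23, not called, under scaling by total counts only. The ratio of *Foxo4* to *Foxo3* does not depend on scaling. It was 3.00, 1.53 and 1.80 in the E15 replicates and 10.0, 9.74 and 9.54 in the adult replicates, 4.63 times higher in the adult without overlap. Of 16 genes listed as FoxO targets 12 were matched, and 4 of these were called at E15 and 8 in the adult (median log2 -1.05). By mean normalized count over the 6 libraries, the highest were *Sgk1*, which encodes a kinase of ion transport (log2 -3.55), and *Sod2*, the mitochondrial superoxide dismutase (-2.98). Next came *Insr*, the insulin receptor (-1.34), and *Pink1*, a mitochondrial kinase (-1.05). All of these were called in the adult. The 4 targets called at E15 ranked lower by that mean. They were *Txnip* (log2 1.75), *Irs2* (1.72), *Cited2* (1.79) and *Bcl2l11* (4.09). Any link between the list and the FoxO genes was not tested.

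*Foxj3*, a regulator of muscle fibre type, had a pattern like that of *Foxo4*. It had 1384, 1350 and 1348 counts at E15 and 1078, 1225 and 1070 in adult pools. The normalized counts were 1076 ± 49.6 (SD, n = 3) at E15 against 1529 ± 60.6 (n = 3) in adult pools. The difference was 1.42-fold higher in the adult (log2 -0.51, SE 0.10) with TMM scaling and reversed to a log2 of 0.30, called higher at E15, under scaling by total counts only. The ratio of *Foxj3* to *Foxo4* was 0.959 ± 0.0551 (SD, n = 3) at E15 against 0.912 ± 0.0558 (n = 3) in the adult, and the pools overlapped.

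*Foxm1* activates the cyclins and kinases of mitosis in dividing cells. It had 1215, 1184 and 1260 counts at E15 against 36, 83 and 47 in the adult pools. The E15 pools were nearly equal, and the adult pools were far lower, with replicate 2 the highest. The difference was 12.9-fold (log2 3.69, SE 0.24). Of the 17 listed targets and markers of division 12 were matched and all 12 were called at E15, with a median log2 of 5.62. Their summed normalized count was 17814 to 22764 at E15 and 816 to 971 in the adult, and *Ccnb2* was at 0 in all adult pools. Those with the most counts were *Cenpf*, a kinetochore gene (log2 6.93), *Cdk1*, the mitotic kinase (8.18), *Ccnb1*, its cyclin (5.76), and *Kif20a*, a motor of cytokinesis (2.96). The list's part in the *Foxm1* difference was not tested.

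The FoxP genes encode repressors with a leucine zipper. *Foxp1*, known from heart, lymphocytes and motor neurons, had 437, 495 and 471 counts in E15 pools against 56, 74 and 29 in adult ones. It was 5.13-fold higher at E15 (log2 2.36, SE 0.28) without overlap. *Foxp2*, the gene linked to speech, stood below a mean of 100 normalized counts at both ages. It had 92, 123 and 95 counts at E15 and 3, 0 and 2 in adult pools, a 34.0-fold difference (log2 5.09, SE 0.58). Without the adult replicate 1 its ratio was 61.2 (exact 95% interval 16.8 to 507), and without the adult replicate 2 the fitted difference was 22.1-fold.

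The FoxN and FoxK genes were higher at E15 as well. *Foxn3*, a repressor linked to cell cycle checkpoints, had 967, 840 and 781 counts at E15 against 156, 224 and 204 in the adult pools. It was 2.59-fold higher at E15 (log2 1.37, SE 0.16), and E15 replicate 1 was the highest pool. *Foxk1*, a regulator of muscle progenitors and glycolysis, had 213, 473 and 369 counts in E15 pools against 69, 67 and 57 in adult ones. It was 3.15-fold higher (log2 1.65, SE 0.28), and here E15 replicate 1 was the lowest pool of its age.

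*Foxn4*, a factor of retinal and spinal interneurons, was close to absent from the adult counts. It had 274, 480 and 443 counts at E15 and 0, 0 and 4 in adult pools, a 162-fold difference (log2 7.34, SE 0.61). All adult counts came from replicate 3. Without that library the difference was at least 155-fold against a floor of 3 counts over the remaining adult pools, and without the adult replicate 2 it was 105-fold. Neuronal and progenitor markers were also higher at E15.

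*Foxd1* marks stromal progenitors and the ancestors of pericytes. It had 101, 322 and 188 counts at E15 against 1, 14 and 4 in the adult pools, an 18.4-fold difference (log2 4.20, SE 0.66). The adult replicate 2 held most of the adult counts. Without it the difference was 43.1-fold, and without the adult replicate 1 it was 12.9-fold. The identifier named *Foxd2* carries the description of forkhead box D1 in the authors' table, so which of these genes it counts is uncertain. It had 40, 84 and 53 counts in E15 pools against 2, 0 and 1 in adult ones. Its ratio of E15 to adult was 34.3, with an exact 95% interval of 11.5 to 168. Without the adult replicate 1 the ratio was 69.9 (12.4 to 2775), and without the adult replicate 2 it was 22.3 (7.51 to 109). *Foxs1*, expressed in pericytes and sensory neurons, had 50, 98 and 57 counts at E15 and 8, 1 and 3 in adult pools. It was 9.60-fold higher at E15 (log2 3.26, SE 0.61). The *Foxs1* difference was 18.8-fold without the adult replicate 1 and 6.72-fold without the adult replicate 2.

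Markers of mesenchyme and pericytes were mostly higher at E15 too. Of 13 listed, 12 were matched, and 10 were called at E15 and 2 in the adult, *Pdgfra* and *Dcn* (median log2 3.28). Their summed normalized count was 45622 to 59658 at E15 and 16244 to 16958 in the adult, with none at 0 in all adult pools. *Col3a1*, a collagen of connective tissue with the most counts in the list, had a log2 difference of 4.44. The part of the list in the *Foxd1*, *Foxd2* and *Foxs1* differences was not tested. Cartilage genes, the known targets of *Sox5*, *Sox6* and *Sox9*, were matched for 6 of 11, of which 5 were called at E15 and 1 in the adult (median log2 3.74). *Col2a1*, the collagen of cartilage, led these with 1039, 2517 and 2407 raw counts at E15 against 2, 1 and 5 in the adult pools.

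*Foxq1*, a factor of hair follicle differentiation, had 90, 207 and 192 counts in E15 pools against 0, 3 and 2 in adult ones. It was 53.7-fold higher at E15 (log2 5.75, SE 0.62). Without the adult replicate 2 its ratio was 92.4, with an exact 95% interval of 25.4 to 765. Without the adult replicate 1 the fitted difference was 36.2-fold. E15 replicate 1 was the lowest pool of its age and still well above the adult pools.

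The remaining forkhead genes were at low counts. *Foxa1*, a factor that opens chromatin in endoderm and floor plate, had 24, 59 and 45 counts at E15 and 0 in each adult pool, at least 24.8-fold higher at E15 against a floor of 3 counts over the adult pools. *Foxb1*, of the hypothalamus, had 3, 14 and 9 counts at E15 and 0 in each adult pool, at least 5.03-fold higher. *Foxl2*, a factor of ovary and eyelid, had 23, 79 and 71 counts at E15 and 1, 0 and 0 in adult pools. Its ratio was 100.5, with an exact 95% interval of 17.8 to 3991. Without the adult replicate 1 it was at least 22.8-fold higher at E15. *Foxr1* had 3, 0 and 5 counts at E15 and 0 in each adult pool, 1.55-fold higher against that floor. Without E15 replicate 3 *Foxr1* was at or under the floor at both ages. Folds against the floor take the E15 counts as exact, so with E15 counts this few they are not firm lower bounds. *Foxa3*, a liver factor, had 2, 3 and 4 counts at E15 against 9, 10 and 7 in the adult pools, 4.78-fold higher in the adult (log2 -2.26, SE 0.66). It was not called without E15 replicate 2 (log2 -2.24), with the replicate number as a block (-2.27) or under scaling by total counts only (-1.47).

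The pools of an age differed among themselves in the Sox and forkhead genes. For each gene the log2 ratio of its normalized count in a pool to the mean of the other pools of that age was taken with a pseudocount of 0.5. Over the 21 members with a mean of at least 100 counts at E15 the median was -0.24 in E15 replicate 1, 0.25 in replicate 2 and 0.09 in replicate 3. Over the 11444 genes of that depth the median in E15 replicate 1 was -0.02, with the 5th percentile at -0.82 and the 95th at 0.72. E15 replicate 1 was the lowest pool of its age for 19 of the 30 members and the highest for 6. The same shares were not counted over all genes, so nothing about the members is read from them. Of the 21 members, *Sox18* (-1.35), *Foxd1* (-1.25), *Sox12* (-1.19), *Foxq1* (-1.07), *Sox4* (-0.93), *Foxk1* (-0.90) and *Foxo3* (-0.86) lay below that 5th percentile in E15 replicate 1. In the same pool *Sox2* (0.61) and *Foxn3* (0.33) stood highest above 0.

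In the adult, replicate 2 was high for *Foxd1* (2.24), *Sox11* and *Foxq1* (1.23 each), *Sox30* (1.15), *Foxm1* (0.89), *Sox18* (0.88), *Foxo6* (0.82) and *Sox17* (0.72). It was lowest for *Foxp2* (-3.00), *Foxn4* (-2.70), *Foxd2* (-2.38) and *Foxs1* (-2.19). Few adult counts lay behind these values, and also behind those of *Foxd1*, *Sox11*, *Foxq1*, *Sox30* and *Foxo6*. The list medians in the adult replicate 2 were 1.48 for astrocytes, 1.43 for developing neurons, 0.50 for erythroid cells and 0.45 for endothelium. They were 0.43 for cartilage, 0.41 for mesenchyme and pericytes, 0.28 for proliferation and 0.12 for macrophages. FoxO targets stood at 0.03, motile cilia at 0.02 and plexus epithelium at 0.01. Neural progenitors stood at -0.09 and oligodendrocytes at -0.30. In the adult replicate 1 *Sox10* stood at 3.24 and the oligodendrocyte list at a median of 1.09. In E15 replicate 1 the list medians were -0.80 for cartilage, -0.46 for oligodendrocytes, -0.37 for endothelium, -0.31 for macrophages and -0.30 for plexus epithelium. They were -0.24 for motile cilia, -0.16 for erythroid cells, -0.06 for FoxO targets and -0.04 for mesenchyme and pericytes. Proliferation stood at 0.10 and astrocytes at 0.19. At E15 the neural progenitor list stood at 0.55 in replicate 1 and -0.65 in replicate 2, and *Sox2* at 0.61 and -0.30. *Foxn4* stood the other way, at -0.68 and 0.37, while the list of developing neurons stood at 1.31 and -1.75. Some genes thus deviated in the direction of a list and others against it, and the part of the lists in the genes' spread was not tested.

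**Figure D4:**
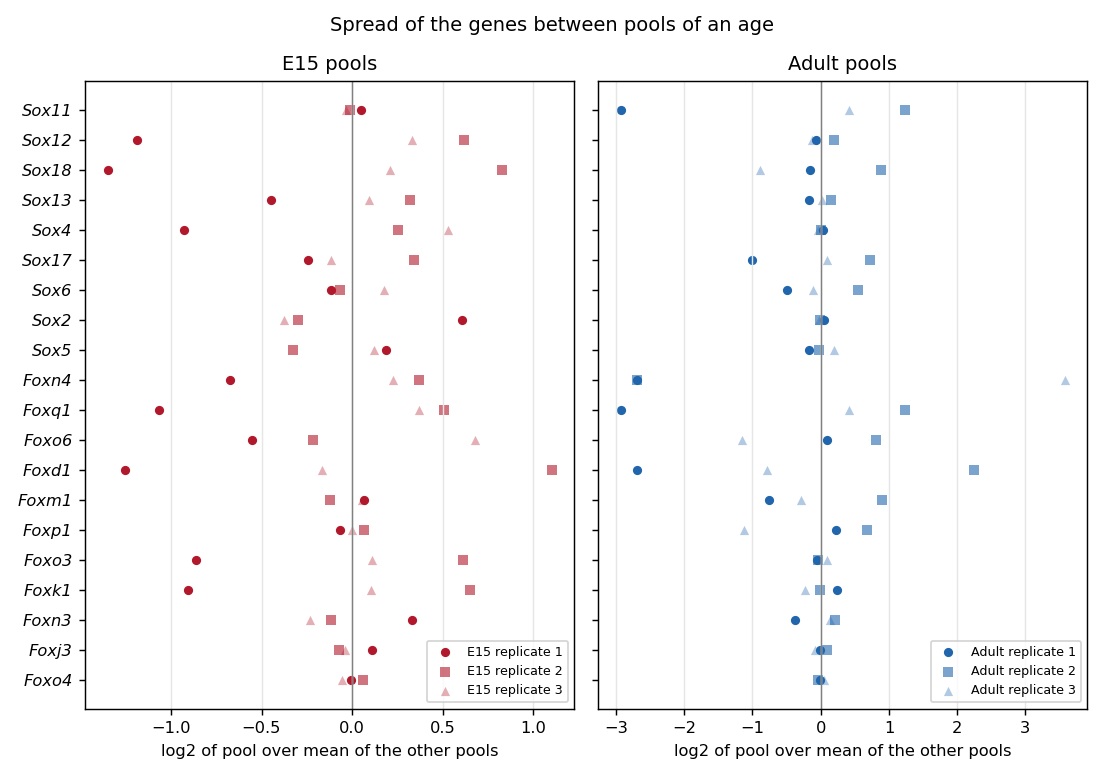
Log2 ratio of each gene's normalized count in a pool to the mean of the other pools of its age, for the 20 members with a mean normalized count of at least 100 at the higher age, E15 on the left and adult on the right with different axis ranges. E15 replicate 1 (dark red circles) is farthest left for *Sox18* at -1.35 and lies right of 0 for *Sox2* at 0.61, and the adult replicate 2 (blue squares) is right of 0 for *Foxd1* at 2.24.

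Markers of developing neurons and of neural progenitors were mostly higher at E15. Of 12 markers of developing neurons 11 were matched, and 10 were called at E15 and 0 in the adult (median log2 5.32). Their summed normalized count was 5527, 1757 and 4064 in E15 replicates 1, 2 and 3 and 146 to 731 in the adult, with *Nhlh1* and *Neurod6* at 0 in all adult pools. Neural progenitor markers were matched for 10 of 11 and all 10 were called at E15 (median log2 4.06). Their sum was 6698 to 8970 at E15 and 1096 to 1157 in the adult. *Sox2*, *Sox11* and *Foxn4*, which neural progenitors and young neurons are known to use, were also higher at E15, and the part of these lists in that was not tested. The normalized count of *Sox11* was 1835 in E15 replicate 2, where the neuronal sum was the lowest of its age, and 1887 in replicate 1, where that sum was the highest.

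**Figure D5:**
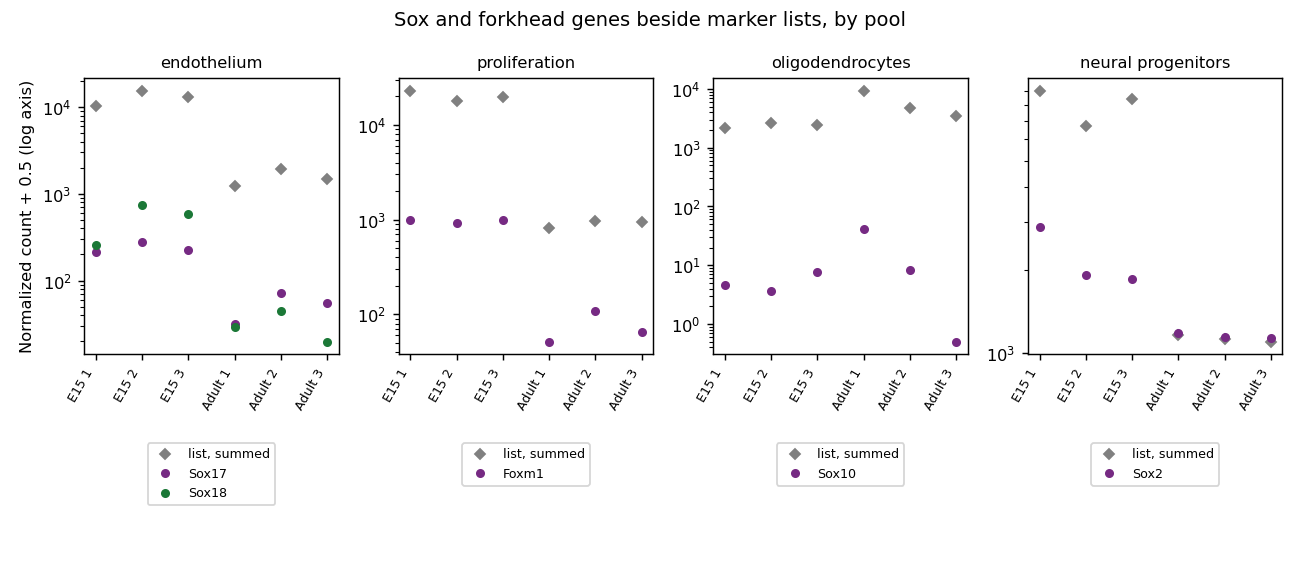
Normalized count plus 0.5 (log axes that differ between panels) of *Sox17*, *Sox18*, *Foxm1*, *Sox10* and *Sox2* in each pool, beside the summed normalized count of a marker list in grey. *Sox10* and the oligodendrocyte list are both highest in the adult replicate 1, the list at 9219, and the endothelial and proliferation lists are higher in every E15 pool.

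The other lists went in both directions. Epithelial markers of the plexus were matched for 10 of 14, and all 10 were called higher in the adult (median log2 -3.01). Astrocyte markers were matched for 4 of 6, with 1 called at E15 and 3 in the adult (median log2 -3.71). Macrophage markers were matched for 7 of 10, with 4 called at E15, 2 in the adult and 1 not called (median log2 0.74). Erythroid markers were matched for 7 of 8 and all 7 were called at E15 (median log2 4.67), with *Gata1* at 0 in all adult pools. Genes of motile cilia, the known programme of forkhead J1, were matched for 5 of 16, with 3 called at E15 and 2 in the adult (median log2 0.67). Since only genes called by the authors have names, the share of each list that was called is raised by that selection.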

How the data were processed

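Reads were trimmed by the authors and mapped to the rat genome of Ensembl with Bowtie 0.12.7. Those with a unique place were counted per gene with HTSeq 0.4.7p4. The deposited values are these raw counts, without normalization. Whether counting used the strand is not given in the sources used here, so antisense transcripts may be included. A second table by the authors holds gene names and their own fold changes and p-values from edgeR (version 2.4.0), which were not used.

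The quasi-likelihood test of edgeR 4.0.16 (estimateDisp, glmQLFit, glmQLFTest; R 4.3.3) was fitted to age alone with TMM factors, for each gene whose counts summed to more than 10. The biological coefficient of variation was 18.2%. The threshold was an adjusted p of 0.05. The log2 differences printed include the small prior count that edgeR adds. Each SE was calculated back from the test, as the size of the log2 without that prior count divided by the square root of F. Alternatives were 4 other scalings, other filters, DESeq2 (1.42.0), limma-voom (limma 3.58.1), an exact test, the replicate number as a block and each library left out. The members and the 13 marker and target lists were chosen with earlier results of these data known. All members are named. Counts by pool were planned for those with a mean normalized count of at least 100 at the higher age and are printed for the others too. At most 4 genes of a list are named by rank, those with the highest mean normalized count. List genes at 0 in the adult, *Pdgfra*, *Dcn* and the FoxO targets called at E15 were named after their values were seen. Of 160 list genes 117 were matched. Some single genes of the lists are not reported here. Floors of 3 counts cover counting error in the adult pools only and take the E15 counts as exact. Exact intervals cover counting error only. The statistics were tested on simulated data. Descriptive values used Python 3.11.15 with pandas 2.3.3 and scipy 1.17.1, and plots matplotlib 3.10.9.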

Additional observations from a re-analysis of the deposited data

How the results depend on the processing

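The number of Sox and forkhead genes called at E15 lay between 23 and 25 under the 16 alternatives, against 24. The number called in the adult, 4, was 0 under scaling by total counts only and 2 when the 10 genes of highest mean were left out of those totals. It was 3 under edgeR's filterByExpr, with the replicate block and without E15 replicate 2. It was 5 under the exact test and without the adult replicate 3. The filterByExpr setting kept 14587 genes and called 23 members at E15. *Foxb1* and *Sox10* were not tested under it, and *Foxa3* was not among its calls. Over all genes, 5772 were called at E15 and 4879 in the adult, so 54.2% of calls were at E15. Scaling by total counts only gave 9799 and 2292 (81.0% at E15), and leaving the top 10 genes out of the totals gave 8071 and 3197 (71.6%). Scaling by total counts only also reversed *Foxj3* (log2 0.30) and *Foxo4* (0.23), and *Sox10* reversed without the adult replicate 1 (0.23). The cause was not tested. Calls were lost for *Sox5* under total counts, for *Foxj3* and *Foxo4* without the top 10 genes, and for *Foxa3* under total counts, the replicate block and without E15 replicate 2. *Sox10* was called under the exact test, and with the adult replicates left out in turn its log2 ranged from -2.35, called, to 0.23. Of 461 values of single members under the alternatives, the other 450 kept their direction and their side of the threshold. Over all marker and target lists, 81 genes were called at E15, with a range of 76 to 82, and 34 in the adult, with a range of 24 to 35.

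No pairing by replicate number was seen, with correlations of same-numbered deviations of -0.007, -0.011 and -0.038. Unlike-numbered deviations gave -0.019 to 0.041. These values do not show how the pools were processed. With the replicate number as a block, 5320 genes were called at E15 and 4608 in the adult, with 24 members at E15 and 3 in the adult, since *Foxa3* (log2 -2.27) was no longer called. Leaving out 1 library in turn gave 5009 to 6218 genes called at E15 and 4328 to 5449 in the adult. The folds of members under 10 adult counts rest on few counts at this depth.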
